A study of Mus musculus with 24 samples.

Results

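The change of the toosendanin difference between day 9 and day 21 is described here for serum exosome miRNAs of the mouse. For each miRNA it is the difference between toosendanin and control arrays at day 21 minus the same difference at day 9, on a log2 scale. Its members were all 1881 miRNAs of the array that were not control features, and 444 of them were tested because every array of some group (4 arrays) read them well above background. Of these, 157 read well above background throughout the 16 arrays that the change uses. The study measured 24 arrays in 6 groups of 4, and the change uses 16 of them, so n = 4 applies to every group below. TSN day 21 and TSN day 9 are male mice of the BALB/c strain dosed at 80 mg/kg for 21 or 9 days with toosendanin (TSN), a compound of the chinaberry tree that is toxic to the liver at high dose. Control day 21 and control day 9 are mice of the same sex and strain given vehicle for the same times. In all groups serum was taken a day after the last dose, exosomal RNA was labelled with Cy3, and each sample was hybridised to its own one-colour array. The labels give no age and do not say how many animals a sample holds, so p-values cover only the spread between these samples, which may be technical.

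Serum exosomes are small vesicles that cells release into blood, and the miRNAs they carry come from many tissues. A miRNA pairs with target messages mainly through its seed, bases 2 to 8, so miRNAs with one seed can share targets. Some serum miRNAs are known for their source: miR-122-5p and miR-192-5p for the liver, the miR-1 and miR-133 families for muscle, and miR-451a, miR-144-3p and miR-486a-5p for red cells. The series title names miR-106b-5p, which is made with miR-93-5p and miR-25-3p from one cluster inside Mcm7, a gene of DNA replication. The comparison of the days asks whether a difference present after 9 days of dosing was smaller, as large or larger after 21 days.

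The sequences of the miRNAs on which the results turn are given from RefSeq (GRCm38.p6), with the seed in capitals. The first set shares the seed of miR-106b-5p, and miR-106b-5p and miR-93-5p lie on the minus strand at chr5:138165787-138165807 and chr5:138165574-138165596.
miR-106b-5p: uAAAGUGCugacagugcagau
miR-93-5p: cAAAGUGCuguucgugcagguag
miR-17-5p: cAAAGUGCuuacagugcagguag
miR-20a-5p: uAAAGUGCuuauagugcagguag
miR-20b-5p: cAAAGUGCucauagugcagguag

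The third member of that cluster, miR-25-3p (chr5:138165332-138165353, minus strand), has another seed, which it shares with miR-92a-3p. The next 3 miRNAs share the seed of the miR-15/16 family.
miR-25-3p: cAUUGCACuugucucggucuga
miR-92a-3p: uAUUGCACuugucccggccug
miR-15a-5p: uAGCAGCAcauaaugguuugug
miR-15b-5p: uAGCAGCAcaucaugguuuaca
miR-16-5p: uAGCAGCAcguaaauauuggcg

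The muscle miRNA with the largest change and a pair of red cell miRNAs made from one locus on chromosome 11 (miR-144-3p at chr11:78073047-78073066 and miR-451a at chr11:78073186-78073207, plus strand) follow.
miR-133b-3p: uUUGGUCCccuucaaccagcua
miR-144-3p: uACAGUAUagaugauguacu
miR-451a: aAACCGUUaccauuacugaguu

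The last set holds examples of differences that held (miR-222-3p), grew (miR-22-3p and miR-5100) or became smaller from below (miR-883a-5p, miR-882 and miR-3099-3p).
miR-222-3p: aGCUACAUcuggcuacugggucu
miR-22-3p: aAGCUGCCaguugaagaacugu
miR-5100: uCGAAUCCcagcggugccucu
miR-883a-5p: uGCUGAGAgaaguagcaguuac
miR-882: aGGAGAGAguuagcgcauuagu
miR-3099-3p: uAGGCUAGagagagguugggga

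Levels below are log2 of the signal divided by the array's 75th percentile (over 261 probes well above background on all 24 arrays), so 0 is the level of that percentile. Of the 1881 miRNAs, 435 to 471 were well above background on the TSN day 21 arrays, 184 to 351 on control day 21, 427 to 447 on TSN day 9 and 184 to 300 on control day 9. The 8 TSN arrays of both days lay on one slide. The control day 21 arrays lay on another slide than the control day 9 arrays and were scanned on another date, so slide, scan date and day cannot be told apart in the controls. On neither day did TSN arrays share a slide or scan date with control arrays, so in every difference of a single day treatment cannot be told apart from slide and scan date. Before scaling, the percentile was higher in TSN than in control arrays by 2.55 at day 21 and by 3.56 at day 9 (log2), a change of -1.01. The percentile moved by -0.12 between the days in TSN arrays (exact two-sided permutation p = 0.514, n = 4) and by 0.89 in control arrays (exact p = 0.286, n = 4). These shifts enter every scaled change through the percentile: scaling subtracts the -1.01 from the unscaled change, save where values sit near background. For miR-106b-5p the change was -2.33 without scaling and -1.32 with it. What caused the shifts was not tested. The mean log2 signal of the 8 spike-in probes was also higher in TSN than in control arrays, by 0.80 at day 21 and by 0.91 at day 9. Between the days it moved by 0.17 in TSN arrays (exact permutation p = 0.0286, adjusted p = 0.171) and by 0.28 in control arrays (exact p = 0.314). Values without scaling carry these spike-in differences. Unless said otherwise, each difference given here is relative to that percentile: without scaling, 136 of the 152 miRNAs called lower in TSN at day 9 and 90 of the 96 called lower at day 21 were above control, as were all that were called higher.

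Most differences that changed became smaller. The change was called higher for 102 of 444 miRNAs (23% of those tested) and lower for 52 (11.7%), by limma with Benjamini-Hochberg adjusted p under 0.05 over all 444. The median change over all 444 was 0.21. Of the 154 called changes, 106 moved a called day 9 difference toward or past 0 with no opposite call at day 21 (smaller below). Another 4 were called on both days with opposite signs (turned), and 14 grew. A further 27 were called at day 21 and not at day 9, and 3 were called on neither day. Among the 106 smaller differences, 72 were higher in their change (TSN below control at day 9) and 34 were lower (TSN above control at day 9). Their median size was 0.30 at day 21 and 1.30 at day 9 on the log2 scale. The class was defined by a called change against the day 9 difference, so these sizes describe it and add no test. At day 21, 72 of the 106 no longer passed the threshold for a TSN difference and 34 still did. Among these 72, TSN was above control for 28 and below for 44 at day 9. At day 21 it was above for 37 and below for 35, so some had crossed 0 without a call.

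Not every day 9 difference became smaller. Of the 276 miRNAs called at day 9 (124 higher, 27.9% of those tested, and 152 lower, 34.2%, in TSN), 61 were also called in the same direction at day 21 with a 95% interval of the change within 2-fold either way. Another 36 were called on both days with a wider interval. A further 55 passed only at day 9, and the change itself did not pass. At day 21 itself 103 were called higher (23.2%) and 96 lower (21.6%). Over all 276 the median size was 0.55 at day 21 and 0.99 at day 9. The 276 were chosen for passing at day 9, a choice that by itself favours larger sizes on that day. Without scaling, 28 differences were smaller and still called, 7 smaller with no call at day 21, 12 larger and 66 held. A further 4 had a called change and a difference called at day 21 alone. The days are compared from the same arrays, so these classes describe the change and add no test to it.

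**Figure D1:**
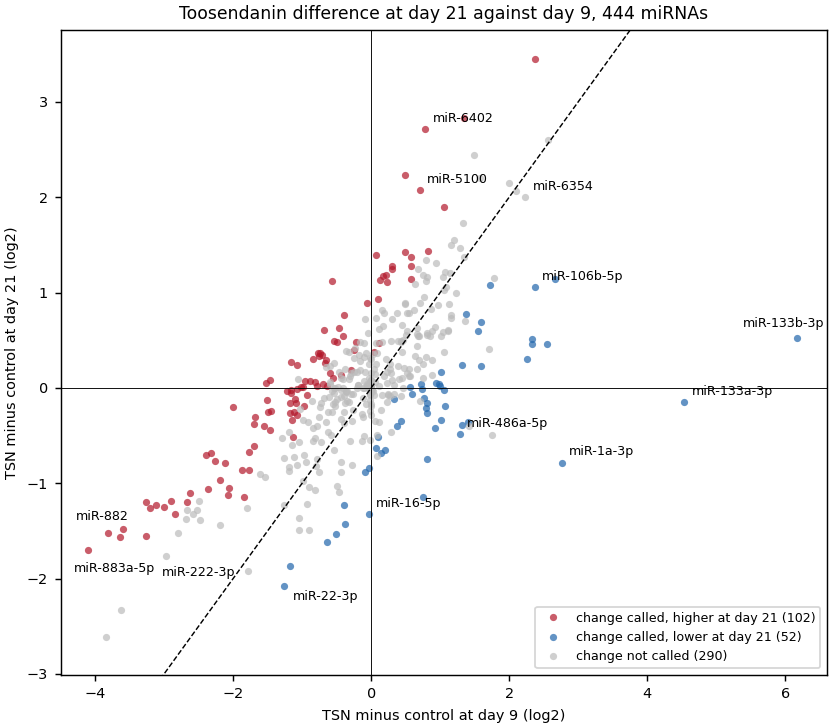
TSN minus control at day 21 (y axis) against TSN minus control at day 9 (x axis), both log2 differences of group means (n = 4 arrays each), for 444 miRNAs; the dashed line marks equal differences. Points above the line (102 red) had changes called higher and points below it (52 blue) had changes called lower, and most red and blue points lie nearer to 0 on the y axis than on the x axis.

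The split between higher and lower calls moved with the scaling. It was 102 higher and 52 lower here, 58 and 64 after quantile normalization, 12 and 81 with spike-in probes as the scale, 16 and 35 with no scaling, 8 and 127 with the percentile over all probes, and 43 and 98 in the authors' deposited log2 values. These settings moved the median change of all 444 by between -0.64 and -0.32. The changes of 7 named miRNAs passed under all 33 alternatives run: miR-106b-5p, miR-93-5p, miR-25-3p, miR-486a-5p, miR-15a-5p, miR-15b-5p and miR-6931-5p. miR-133b-3p passed under the 32 that tested it, all but the restriction to miRNAs measured on all 16 arrays. All 8 were lower.

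The TSN side of the change lay within one slide. Between TSN day 21 and TSN day 9, 136 miRNAs were called higher (30.6%) and 57 lower (12.8%), against 2 called in either direction between control day 21 and control day 9 (0.45%). Those 2 were miR-504-3p (-0.65, adjusted p = 0.0329) and miR-6238 (1.09, adjusted p = 0.021), named after their values were seen. Of the 444 tested, 91 read well above background on no control array of either day, so their control differences rest on values near background. They include 11 of the 102 changes called higher and 4 of the 52 called lower. Of the 102 changes called higher, 96 were also called higher between the TSN days, and 84 had all 4 TSN day 21 arrays above all 4 TSN day 9 arrays, where 25.7% of all tested miRNAs did. Of the 52 called lower, 41 were called lower between the TSN days and 45 had all TSN day 21 arrays below the TSN day 9 arrays, where 13.1% of all tested did. The median TSN part was 0.87 and the median control part -0.18 among the 102, and -0.78 and 0.28 among the 52. The change is the TSN part minus the control part on the same arrays. Called changes therefore tend to have TSN parts of their own sign, and these counts describe them and add no test. Without scaling, the TSN part kept its sign for all 102 and all 52, while the whole change kept it for 79 of the 102 and for 52 of the 52.

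**Figure D2:**
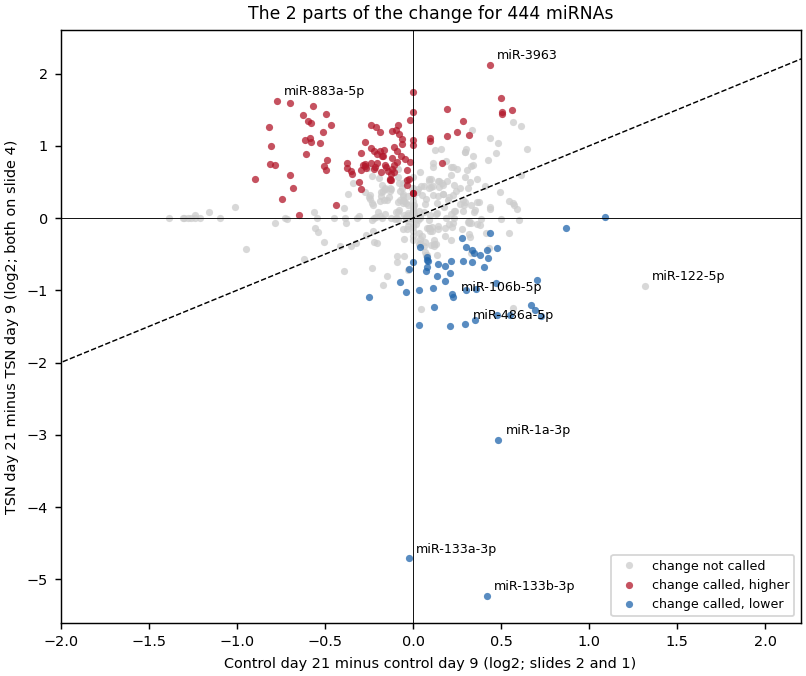
TSN day 21 minus TSN day 9 (y axis, both groups on one slide) against control day 21 minus control day 9 (x axis, on different slides), log2 differences of group means (n = 4 arrays each), for 444 miRNAs; the dashed line marks a change of 0. Called changes lie mostly far from 0 on the y axis and near 0 on the x axis, where 2 control differences were called. Of the 444, 91 read well above background on no control array of either day.

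The miR-106b cluster was higher in TSN at day 9, and that difference was smaller at day 21 for all 3 members. miR-106b-5p read 0.54, 0.36, 0.00 and 0.30 on the TSN day 21 arrays and -0.69, -0.94, -0.93 and -0.45 on the control day 21 arrays. On the TSN day 9 arrays it read 1.51, 1.59, 1.13 and 1.31, and on the control day 9 arrays -1.37, -0.48, -1.10 and -0.99. TSN arrays lay above control arrays on both days without overlap, and the TSN day 21 arrays all lay below the TSN day 9 arrays. The difference was 1.05 at day 21 and 2.37 at day 9, a change of -1.32 (SE 0.267, limma adjusted p = 0.00128). The TSN part was -1.09 (SE 0.189, adjusted p = 0.000215) and the control part 0.23 (adjusted p = 0.586).

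Its cluster neighbours were called at day 9 and not at day 21. miR-25-3p read 0.08, -0.51, -0.65 and -0.61 in TSN day 21 and -0.43, -0.02, 0.05 and 0.13 in control day 21, groups that overlap. It read 1.05, 0.98, 0.90 and 1.03 in TSN day 9 and -0.86, -0.02, -0.25 and -0.53 in control day 9, groups that do not. The change was -1.77 (SE 0.307, adjusted p = 0.000529), with differences of -0.36 at day 21 and 1.41 at day 9. miR-93-5p had a change of -1.27 (SE 0.256, adjusted p = 0.00128), with differences of -0.19 at day 21 and 1.08 at day 9. All 3 tested members of the cluster were called lower, and their median change of -1.32 stands beside 0.21 for all tested miRNAs. At day 21 the difference of miR-106b-5p still passed (adjusted p = 0.000144), and those of miR-25-3p (adjusted p = 0.205) and miR-93-5p (adjusted p = 0.453) did not.

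Beyond the cluster, the relatives of miR-106b-5p changed in the same direction or were not called. The miR-17 superfamily, made from related clusters on chromosomes 5, 14 and X, had 7 of 11 tested members called lower and none higher (11.7% of all tested were called lower), with a median of -0.84. The count of 7 and the median include the 3 called members of the miR-106b cluster given above. Outside that cluster the called members were miR-17-5p, miR-92a-3p, miR-19a-3p and miR-19b-3p. miR-17-5p, which has the seed of miR-106b-5p, changed by -0.64 (adjusted p = 0.019) and was still higher in TSN at day 21 (1.08) as at day 9 (1.73). miR-20a-5p (-0.49, adjusted p = 0.0686) and miR-20b-5p (-0.47, adjusted p = 0.0834) share that seed and were not called. miR-92a-3p, with the seed of miR-25-3p, changed by -1.35 (SE 0.255, adjusted p = 0.000972) from differences of -0.34 at day 21 and 1.01 at day 9. miR-19a-3p (-1.05, adjusted p = 0.00852) and miR-19b-3p (-0.84, adjusted p = 0.0226) differed in pattern: TSN was below control by 1.43 and 1.23 at day 21, and their day 9 differences of -0.38 and -0.39 were not called. The call for miR-19b-3p was lost without TSN day 21 replicate 4, control day 21 replicate 4 or TSN day 9 replicate 4 (changes of -0.74, -0.74 and -0.76).

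**Figure D3:**
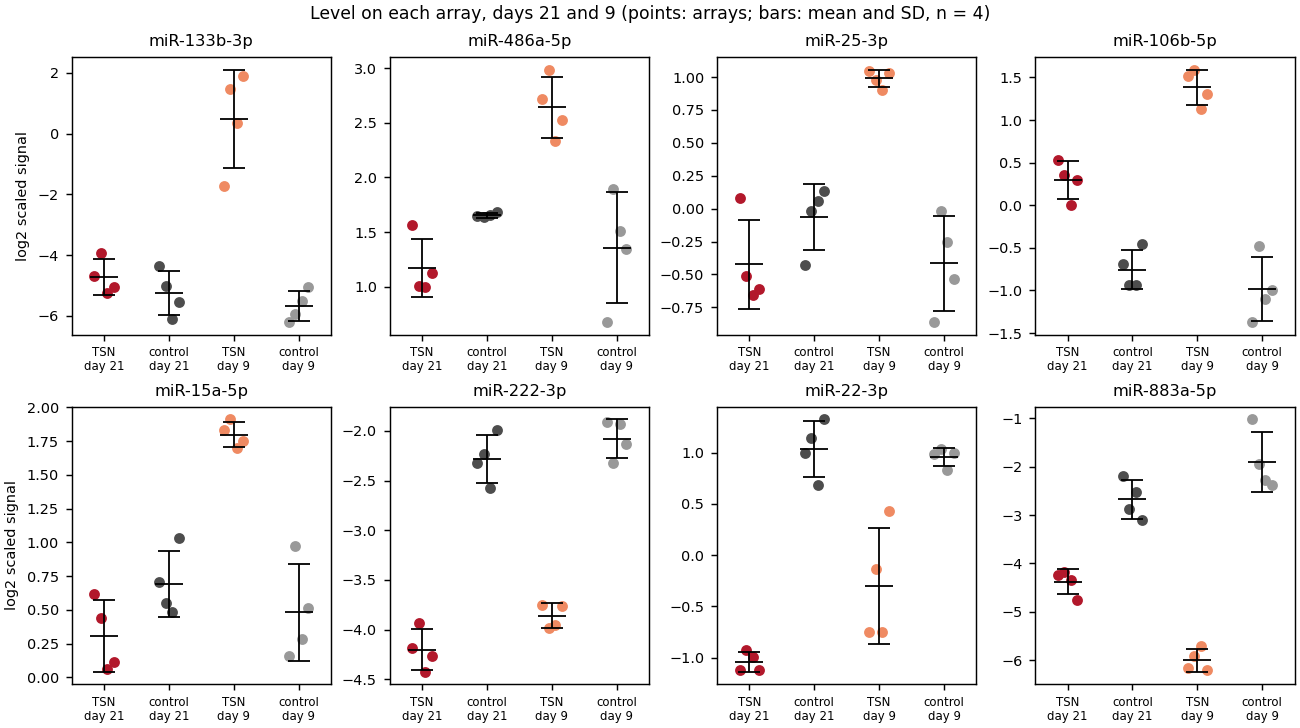
Level on each array (points; log2 of the signal over the array's 75th percentile) with mean and SD (bars, n = 4) for 8 miRNAs in TSN day 21, control day 21, TSN day 9 and control day 9. For miR-133b-3p, miR-486a-5p, miR-25-3p and miR-15a-5p the TSN day 9 arrays stand above the other 3 groups, miR-106b-5p and miR-883a-5p stay apart from control at day 21 by less, miR-222-3p stays apart by as much, and miR-22-3p by more.

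The miR-15/16 family, known as brakes on the cell cycle, had 4 of 6 tested members called lower, where 11.7% of all tested were, and none higher (median -1.05). miR-15a-5p read 0.61, 0.44, 0.06 and 0.12 in TSN day 21 and 0.70, 0.55, 0.48 and 1.03 in control day 21. It read 1.83, 1.91, 1.70 and 1.75 in TSN day 9 and 0.16, 0.97, 0.28 and 0.52 in control day 9. The groups overlapped at day 21 and stood apart at day 9, and the change was -1.70 (SE 0.29, adjusted p = 0.000529). miR-15b-5p changed sign: TSN was below control by 0.42 at day 21 (adjusted p = 0.0441) and above it by 0.92 at day 9, a change of -1.34 (SE 0.23, adjusted p = 0.000529). miR-16-5p, which shares a locus with each of these, had differences of -1.33 at day 21 and -0.03 at day 9 (adjusted p = 0.939 at day 9), a change of -1.30 (SE 0.256, adjusted p = 0.00108). miR-195a-5p changed by -0.70 (adjusted p = 0.0311), and miR-497a-5p (-0.81, adjusted p = 0.0532) and miR-322-5p (-0.12, adjusted p = 0.758) were not called.

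The 3 lowest changes among the 444 were in muscle miRNAs. miR-133b-3p, of the miR-133 family that skeletal and heart muscle make in abundance, read -4.70, -3.92, -5.27 and -5.05 in TSN day 21 and -4.38, -5.03, -6.09 and -5.54 in control day 21. It read -1.71, 1.46, 0.33 and 1.90 in TSN day 9 and -6.21, -5.93, -5.52 and -5.05 in control day 9. The TSN day 9 arrays stood apart from the other 12, which overlap. Its change was -5.64 (SE 0.823, adjusted p = 0.000311). It was well above background on 1 of 4 control day 21 arrays and on no control day 9 array, and at day 9 it was at least 21.1-fold higher in TSN than in control. miR-133a-3p changed by -4.68 (SE 0.755, adjusted p = 0.000529), and no control array of either day read it well above background. It was at least 6.35-fold higher in TSN than in control at day 9. miR-1a-3p changed by -3.55 (SE 0.617, adjusted p = 0.000529), with differences of -0.79 at day 21 and 2.77 at day 9.

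miR-378a-3p, the fourth tested member of the 8 on the muscle and heart list, did not follow them: its change was -0.02 (95% interval -1.43 to 1.40, adjusted p = 1). The median of the 4 was -4.12. The summed level of the 4 (linear, relative to the array percentile) was 0.245 to 0.387 in TSN day 21, 0.134 to 0.318 in control day 21, 0.575 to 4.99 in TSN day 9 and 0.108 to 0.203 in control day 9. TSN day 9 replicate 1 was the lowest of its group for all 3 of the called miRNAs. With the software's total gene signal in place of the spot signal, miR-133a-3p (-2.90, adjusted p = 0.342) and miR-1a-3p (-5.36, adjusted p = 0.149) were no longer called. With normexp background correction miR-1a-3p was not called (-1.48).

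Most red cell miRNAs had lower changes. Of 9 tested erythroid miRNAs, 8 were called lower and none higher (11.7% of all tested were called lower), with a median of -1.30. miR-486a-5p, an abundant red cell miRNA, read 1.56, 1.00, 1.00 and 1.13 in TSN day 21 and 1.64, 1.64, 1.65 and 1.69 in control day 21. It read 2.71, 2.99, 2.34 and 2.53 in TSN day 9 and 0.68, 1.90, 1.51 and 1.34 in control day 9. All TSN day 21 arrays lay below the control day 21 arrays, and all TSN day 9 arrays lay above the control day 9 arrays. The difference was -0.48 at day 21 (adjusted p = 0.0772) and 1.28 at day 9, a change of -1.77 (SE 0.305, adjusted p = 0.000529).

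miR-451a, whose maturation bypasses Dicer, had the smallest change among the called members. It read 5.82, 5.77, 5.21 and 5.73 in TSN day 21 and 5.58, 5.52, 5.67 and 6.41 in control day 21. It read 6.34, 6.22, 6.01 and 6.14 in TSN day 9 and 4.83, 5.82, 5.45 and 5.37 in control day 9. The groups overlapped at day 21 and did not at day 9, and the change was -0.97 (SE 0.331, adjusted p = 0.0297). miR-144-3p, from the same locus, changed by -1.37 (SE 0.342, adjusted p = 0.00472), and its other arm miR-144-5p was the one member not called (-0.27, adjusted p = 0.659). The arms miR-486a-3p (-0.98, adjusted p = 0.0193) and miR-486b-3p (-1.03, adjusted p = 0.00809) were below control on both days, by 1.61 and 1.54 at day 21 and by 0.63 and 0.51 at day 9. The list shares miR-15b-5p, miR-16-5p and miR-92a-3p with the families above.

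The summed level of the 9 erythroid miRNAs was 44.5 to 66.9 in TSN day 21, 58.3 to 101 in control day 21, 81.2 to 102 in TSN day 9 and 36.5 to 70.3 in control day 9 (linear, relative to the array percentile). The days overlap in the controls and not in TSN. Red cell miRNAs can also enter serum from lysed cells, and in bulk serum fewer vesicles of a type and less RNA per vesicle cannot be told apart; their part in the result was not tested.

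**Figure D4:**
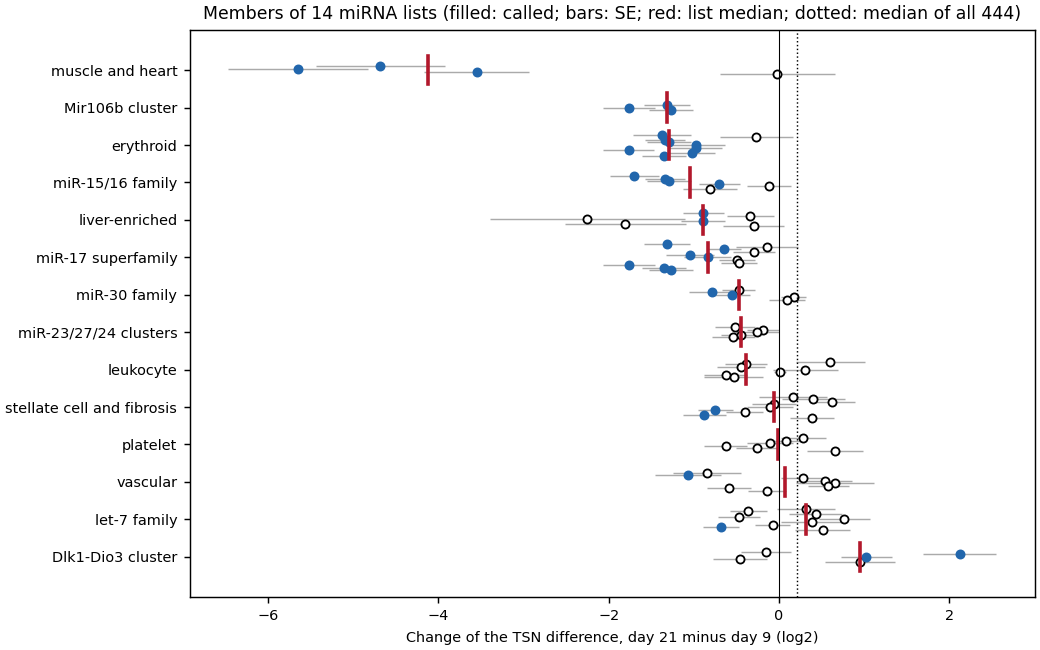
Change of the TSN difference, day 21 minus day 9 (x axis, log2; points: miRNAs, bars: SE), for the tested members of 14 lists, with called changes filled, list medians in red and the median of all 444 (0.21) dotted. The muscle and heart, Mir106b cluster, erythroid and miR-15/16 lists lie furthest to the left. The vascular list (0.07), the let-7 family and the Dlk1-Dio3 cluster have medians to the right of 0.

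Liver miRNAs were called lower or not at all. Of 6 tested members of the 11 on the list, 2 were called lower (11.7% of all tested were) and none higher, with a median of -0.89. With the replicate number as a block at day 9, 4 of the 6 were called lower. miR-148a-3p, abundant in hepatocytes, changed by -0.90 (adjusted p = 0.0124), with TSN above control by 0.69 at day 21 and by 1.59 at day 9. miR-101a-3p changed by -0.89 (adjusted p = 0.0079), with differences of 0.05 at day 21 and 0.94 at day 9. With normexp background correction neither was called, at -0.09 and 0.12.

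miR-122-5p, the dominant hepatocyte miRNA, had the widest spread. It read -3.50, -3.05, -2.86 and -3.37 in TSN day 21 and -3.18, -2.75, -3.31 and -1.55 in control day 21. It read -3.87, -2.34, -3.81 and 0.97 in TSN day 9 and -4.98, -4.01, -4.30 and -2.78 in control day 9. TSN day 9 replicate 4 stood far above the other 3 arrays of its group, and the change of -2.25 (SE 1.14, 95% interval -4.64 to 0.13) was not called (adjusted p = 0.13). miR-192-5p read 1.40 on that array and -2.20 to -1.26 on the other 3 TSN day 9 arrays, and its change of -1.81 (SE 0.711) was not called either (adjusted p = 0.0539).

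Relative to the percentile, differences that were negative at day 9 and became smaller were the larger part of that class (72 of 106). The balance of the directions moved with the scaling, as given above. The 8 highest changes among miRNAs measured on all 16 arrays ran from 1.70 to 2.40, and in each TSN lay below control at day 21 relative to the percentile. miR-883a-5p read -4.24, -4.17, -4.35 and -4.75 in TSN day 21 and -2.19, -2.87, -2.53 and -3.11 in control day 21. It read -6.17, -5.92, -5.71 and -6.21 in TSN day 9 and -1.02, -1.94, -2.28 and -2.37 in control day 9. All TSN arrays lay below all control arrays on both days, and the TSN day 21 arrays lay above the TSN day 9 arrays. The difference was -1.70 at day 21 and -4.10 at day 9, a change of 2.40 (SE 0.416, adjusted p = 0.000529), and 1 of the TSN day 9 arrays sat at the floor of -6.21.

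The other 7 had the same shape. miR-882 changed by 2.29 (SE 0.425, adjusted p = 0.000857), with differences of -1.52 at day 21 and -3.81 at day 9. miR-3099-3p changed by 2.05 (adjusted p = 0.000857), with differences of -1.20 and -3.26 at the same days. miR-6978-5p (1.94), miR-5113 (1.90), miR-6946-5p (1.75), miR-3095-3p (1.70) and miR-7084-5p (1.70) completed the set, with differences of -1.56 to -1.19 at day 21 and -3.26 to -2.89 at day 9. The 8 also varied together within groups: TSN day 21 replicate 4 and control day 21 replicate 4 were the lowest of their groups for all 8, and TSN day 9 replicate 3 and control day 9 replicate 1 the highest for all 8. Both no scaling (0.69 to 1.43) and spike-in probes (0.80 to 1.54) ended the call of all 8, and the percentile over all probes (0.63 to 1.36) that of all but miR-883a-5p; every change kept its sign. The authors' deposited log2 values ended the call of miR-882 (0.08, adjusted p = 0.637) and gave 0.70 for miR-883a-5p. The mean of a miRNA's probes gave 0.77 for miR-882 and 1.20 for miR-883a-5p, both called. Quantile normalization (0.32) and normexp (1.01) ended the call of miR-7084-5p, and the total gene signal that of miR-3099-3p (2.08, adjusted p = 0.0915). Without scaling all 8 lay above control at day 21, by 0.85 to 1.36, and their day 9 differences were -0.58 to 0.67. All but miR-883a-5p and miR-882 then lay above control on both days, and their differences were larger at day 21, not smaller. Their TSN parts without scaling were 1.00 to 1.55.

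Among called changes not measured on all 16 arrays, miR-300-5p (2.12, adjusted p = 0.00128) and miR-6957-5p (2.08, adjusted p = 0.000783) showed the same course, and miR-6957-5p sat at the floor on all 4 TSN day 9 arrays. For miR-300-5p the total gene signal gave a change of -3.98, the opposite direction. miR-8105 changed by 1.80 (SE 0.348, adjusted p = 0.00103), with differences of -0.20 at day 21 and -2.0 at day 9. miR-3082-5p, lower in its change (-2.09, adjusted p = 0.0187), had differences of 0.46 at day 21 and 2.54 at day 9.

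Late miRBase entries, those numbered 3000 or more, gave most of the higher calls: 68 of 198 were called higher and 4 lower, with a median of 0.49. Among the other 246 names 34 were called higher and 48 lower, with a median of -0.06. The number of late entries called higher ran from 5 to 68 over the 5 scalings. Of the called miRNAs with a RefSeq sequence, the 85 called higher had a median GC content of 58.3% and the 42 called lower 42.9%, against 56.0% for the 373 of 444 tested that matched. Base composition and array brightness were not separated from the change.

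Some differences grew. miR-22-3p, an abundant miRNA of many tissues, read -1.12, -0.92, -1.0 and -1.12 in TSN day 21 and 0.99, 1.15, 0.68 and 1.33 in control day 21. It read -0.75, -0.13, -0.75 and 0.43 in TSN day 9 and 0.98, 1.03, 0.83 and 1.00 in control day 9. TSN lay below control without overlap on both days, by 2.08 at day 21 and by 1.26 at day 9, and the change was -0.81 (SE 0.265, adjusted p = 0.0234). The call was lost without control day 21 replicate 4 (-0.72) or TSN day 9 replicate 2 (-0.76). Without scaling miR-22-3p lay above control by 0.48 at day 21 and by 2.30 at day 9, a difference that was smaller at day 21 (change of -1.82, not called). miR-140-5p, a miRNA of cartilage, changed by -0.68 (SE 0.197, adjusted p = 0.0121), with differences of -1.86 at day 21 and -1.18 at day 9 (0.69 and 2.38 without scaling). These and the following miRNAs up to the end of the paragraph on held differences were chosen after their values were seen, from the classes above among miRNAs measured on all 16 arrays.

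miR-5100 grew in the other direction. It read 3.15, 3.60, 3.37 and 3.42 in TSN day 21, 1.41, 1.55, 1.11 and 1.18 in control day 21, 2.08, 1.69, 2.38 and 1.98 in TSN day 9 and 1.39, 1.1, 1.52 and 1.30 in control day 9. TSN lay above control on both days, by 2.07 at day 21 and 0.70 at day 9, and the control groups overlapped. The change was 1.37 (SE 0.263, adjusted p = 0.00103), and 0.36 without scaling. miR-6366 (0.84, adjusted p = 0.0216) and miR-3960 (0.69, adjusted p = 0.0169) also grew, and both changed sign without scaling (-0.17 and -0.31). miR-6402 was read well above background by no control array on either day, was at least 3.15-fold higher in TSN than in control at day 21, and changed by 1.93 (SE 0.463, adjusted p = 0.00362).

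Of the 27 called changes whose difference was called at day 21 and not at day 9, 17 were higher and 10 lower in TSN at day 21. Another 23 were called at day 21 and not at day 9 (14 higher and 9 lower in TSN at day 21), and their change was not called. miR-3963 read 4.62, 4.64, 4.84 and 5.05 in TSN day 21 and 3.65, 3.76, 3.78 and 3.47 in control day 21. It read 2.50, 2.02, 3.31 and 2.84 in TSN day 9 and 2.82, 2.85, 3.42 and 3.82 in control day 9. TSN stood above control at day 21 and overlapped it at day 9. The change was 1.69 (SE 0.367, adjusted p = 0.00186) with a TSN part of 2.12 and a control part of 0.44. miR-711 (1.17, adjusted p = 0.00174) and miR-3472 (0.96, adjusted p = 0.0197) were further examples. Beside miR-15b-5p, 3 miRNAs were called on both days with opposite signs: miR-674-3p (-1.56), miR-7118-5p (0.97) and miR-7211-3p (1.29).

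Of the 61 differences that held, 41 were higher in TSN on both days and 20 lower. miR-222-3p, a vascular miRNA, was below control by 1.92 at day 21 and by 1.78 at day 9, with a change of -0.14 (95% interval -0.60 to 0.33, adjusted p = 0.666). Its cluster partner miR-221-3p, which has the same seed, had differences of -1.49 and -0.90 at the same days and a change of -0.59 that was not called (adjusted p = 0.0782). miR-27a-3p (-1.49 at day 21 and -1.05 at day 9), miR-5126 (-1.26 and -1.80) and miR-3473f (-1.23 and -1.27) held below control. These are levels relative to each array's percentile: without scaling miR-222-3p, miR-27a-3p, miR-5126 and miR-3473f were above control at day 21 by 0.63, 1.06, 1.30 and 1.32. miR-6354 held above it, by 2.00 at day 21 and by 2.24 at day 9 (95% interval of the change -0.88 to 0.40), as did miR-7036a-5p (1.22 and 1.07) and miR-7042-5p (1.06 and 1.09).

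The calls of the remaining lists depended on the settings. The let-7 family, which is widely expressed in differentiated tissue, had 1 of 9 called lower, near the 11.7% of all tested. The called member was let-7i-5p (-0.68, adjusted p = 0.019). The list median of 0.32 was negative under 7 other settings (-0.76 to -0.07). let-7e-5p had the highest change of that family (0.77, adjusted p = 0.0506) and was not called. The miR-30 family had 2 of 5 called lower (11.7% of all tested were), miR-30b-5p (-0.78, adjusted p = 0.034) and miR-30c-5p (-0.55, adjusted p = 0.0468), with a median of -0.48. Either call was lost when any of several single arrays was left out, with miR-30b-5p at -0.78 to -0.63 and miR-30c-5p at -0.59 to -0.38. With the replicate block at day 9 miR-30c-5p was not called (adjusted p = 0.06). The list of the Dlk1-Dio3 cluster, an imprinted group of miRNAs on mouse chromosome 12, had 2 of 5 tested called higher. They were miR-300-5p and miR-370-3p (1.03, adjusted p = 0.0121), and the list median was 0.95 (-0.12 with the percentile over all probes). The list is partial: miR-882 (2.29, called higher) and miR-341-3p (0.44, not called) lie in the same region and are not on it. Of all tested, 23% were called higher. The direction of the list's calls turned: of 18 settings, 12 had members called higher, 5 had 1 member called lower (quantile normalization, spike-in probes, no scaling, the authors' values and the total gene signal), and the percentile over all probes had neither.

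The stellate cell and fibrosis list had 2 of 9 called lower (11.7% of all tested were) and a median of -0.06. The called members were miR-29a-3p (-0.75, adjusted p = 0.00895) and miR-29c-3p (-0.88, adjusted p = 0.0112), which target collagen messages. The vascular list had 1 of 8 called lower, near the 11.7% of all tested. Its median was 0.07, which was negative under 7 other settings (-1.0 to -0.02). The called member was miR-10b-5p (-1.07, adjusted p = 0.0387). That call was lost in 10 of 16 fits that left out 1 array (changes of -1.11 to -0.82) and with the replicate block at day 9 (adjusted p = 0.053). Of 7 leukocyte, 6 platelet and 5 miR-23/27/24 miRNAs none passed in limma (1, 1 and 2 at an unadjusted p under 0.05), with medians of -0.39, -0.01 and -0.45. In the leukocyte list the smallest adjusted p belonged to miR-223-3p, known from granulocytes and platelets (-0.63, adjusted p = 0.0547), and miR-146a-5p changed by -0.45 (adjusted p = 0.222). In the platelet list miR-26a-5p changed by 0.66 (adjusted p = 0.129), in the vascular list miR-145a-5p by 0.58 (adjusted p = 0.0675), and in the miR-23/27/24 list miR-23a-3p by -0.51 (adjusted p = 0.095) and miR-27b-3p by -0.54 (adjusted p = 0.109).

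miR-6931-5p was the remaining one of the 8 lowest changes among miRNAs measured on all 16 arrays. It read 0.00, 0.59, 0.50 and 0.59 in TSN day 21, -0.73, -0.58, -1.32 and -0.26 in control day 21, 1.71, 2.05, 1.11 and 2.75 in TSN day 9 and -0.57, -0.95, -0.76 and -0.74 in control day 9. TSN lay above control on both days, by 1.15 at day 21 and by 2.66 at day 9, and the change was -1.51 (SE 0.402, adjusted p = 0.00733).

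**Figure D5:**
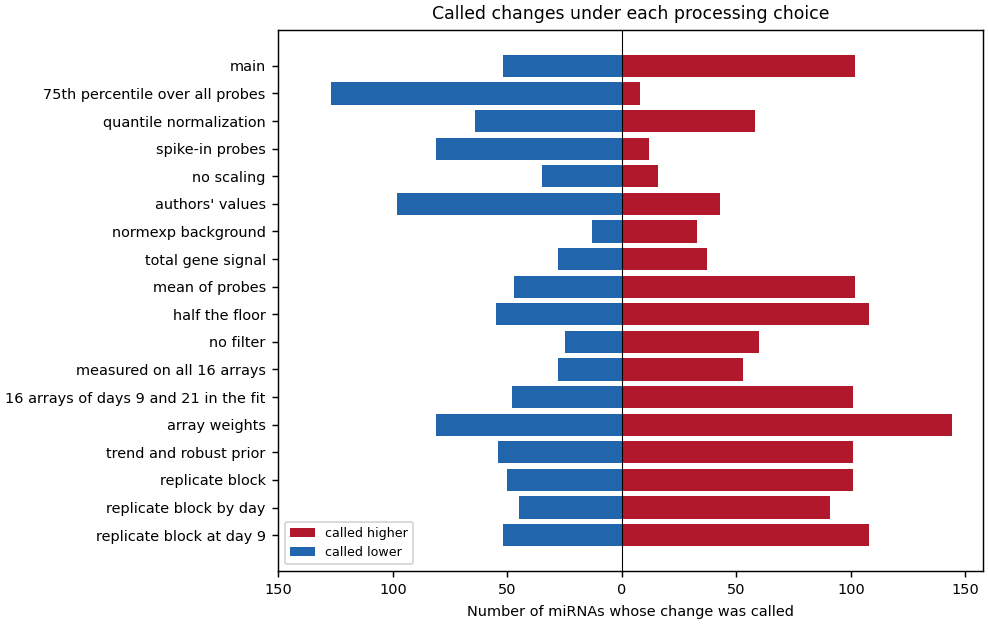
Number of miRNAs whose change was called higher (red, right) or lower (blue, left) under each processing choice (rows); the main setting gave 102 and 52. The balance of the directions turned with the scaling, to 8 and 127 with the percentile over all probes, and normexp background correction gave 33 and 13.

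The Mir106b cluster kept 3 of 3 called lower under all 18 settings of processing and all 16 fits that left out 1 array. The counts that follow stand beside lower calls among all 444 of 13 with normexp to 127 with the percentile over all probes. The percentile over all probes also gave the highest counts of the miR-17 superfamily, the liver list and the miR-15/16 family. The erythroid list had 3 to 8 of 9 called lower over the 18 settings, the miR-17 superfamily 4 to 11 of 11, the liver list 0 to 5 of 6 and the miR-30 family 0 to 3 of 5, with none higher in any. The miR-15/16 family had 2 to 6 of 6 called lower and the muscle and heart list 0 to 3 of 4, with none higher in either, and the muscle count of 0 came from the setting that kept only miRNAs measured on all 16 arrays, where none of its called members was tested.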

How the data were processed

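Serum exosome miRNA was measured on one-colour Agilent arrays. The deposited scanner values are intensity per spot. Feature Extraction 10.7.1.1 had removed background and a spatial trend from them and did no scaling between arrays, per the file headers. Its flags, per the file headers, gave the spots well above background. The authors' deposited processed values were taken as log2, and their scaling and centring are not given in the sources used here.

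Control and outlier spots were left out, spots averaged per probe, and each array divided by its 75th percentile, taken over the 261 probes that all 24 arrays read well above background. Scaled signals under 0.0135 (log2 of -6.21) were raised to that floor before log2; values at the floor have no order. The brightest probe stood for a miRNA, and more than a 0.5 share of spots well above background counted as detected. A fold against a group that no array detected is a lower bound.

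One limma fit (limma 3.58.1, R 4.3.3, data.table version 1.17.8; prior degrees of freedom 1.27) covered the 6 groups, and the change is its two-sided interaction contrast with Benjamini-Hochberg adjustment over 444. On data simulated for this contrast with 444 miRNAs, it was tested for recovery of known changes. The simulated noise was normal and independent between miRNAs, with changes added to TSN day 21 alone and no floor or slide effect. That test therefore checks the contrast and cannot show how the fit performs on these arrays. The number of arrays limits the precision. Array measures were compared by exact permutation over 70 allocations, whose smallest p is 0.0286. Tables and figures used Python 3.11.15 (pandas 2.3.3, matplotlib 3.10.9).

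Named miRNAs are miR-106b-5p, the 8 highest and 8 lowest called changes measured on all 16 arrays, the 4 highest and 4 lowest of the other called changes, and the 2 smallest adjusted p of each list. The members and lists were chosen with earlier results of these data known. Same-numbered arrays deviated together in 4 of 4 pairs between the arms at day 9 (r of 0.202 to 0.353 across miRNAs) and in 2 of 4 at day 21 (-0.109 to 0.426), so the numbers met the check for pairs at day 9 alone, and a replicate block at day 9 was added as an alternative after seeing the data.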

Additional observations from a re-analysis of the deposited data

Results flagged for a closer look

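Of 220 groups of 4 arrays checked for 55 named miRNAs, 4 had 1 array far from the other 3, where chance gives about 1 in 20. miR-6931-5p read 0.00 on TSN day 21 replicate 1 and 0.50 to 0.59 on the others. miR-144-3p read 1.14 on control day 21 replicate 4 and 0.24 to 0.32 on the others. miR-3082-5p read -5.27 on control day 9 replicate 1, where it was not well above background, and -2.95 to -2.75 on the others. miR-3960 read 1.92 on control day 9 replicate 2 and 2.17 to 2.21 on the others.

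The TSN difference itself differed between day 21 and day 9, by the interaction contrast of the limma fit, for every called miRNA that is named. The lower changes (log2) were miR-133b-3p (-5.64), miR-133a-3p (-4.68), miR-1a-3p (-3.55), miR-3082-5p (-2.09), miR-486a-5p (-1.77), miR-25-3p (-1.77), miR-15a-5p (-1.70), miR-674-3p (-1.56), miR-6931-5p (-1.51), miR-144-3p (-1.37), miR-92a-3p (-1.35), miR-15b-5p (-1.34), miR-106b-5p (-1.32), miR-16-5p (-1.30), miR-93-5p (-1.27), miR-10b-5p (-1.07), miR-19a-3p (-1.05), miR-148a-3p (-0.90), miR-101a-3p (-0.89), miR-29c-3p (-0.88), miR-19b-3p (-0.84), miR-22-3p (-0.81), miR-30b-5p (-0.78), miR-29a-3p (-0.75), miR-140-5p (-0.68), let-7i-5p (-0.68), miR-30c-5p (-0.55). The higher changes were miR-883a-5p (2.40), miR-882 (2.29), miR-300-5p (2.12), miR-6957-5p (2.08), miR-3099-3p (2.05), miR-6978-5p (1.94), miR-6402 (1.93), miR-5113 (1.90), miR-8105 (1.80), miR-6946-5p (1.75), miR-3095-3p (1.70), miR-7084-5p (1.70), miR-3963 (1.69), miR-5100 (1.37), miR-7211-3p (1.29), miR-711 (1.17), miR-370-3p (1.03), miR-7118-5p (0.97), miR-3472 (0.96), miR-6366 (0.84), miR-3960 (0.69). No explanation for these was tested.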

How the results depend on the processing

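The numbers of called changes depended on the scaling, background and filter. Against 102 higher and 52 lower, the percentile over all probes gave 8 and 127, quantile normalization 58 and 64, spike-in probes 12 and 81, no scaling 16 and 35, the authors' values 43 and 98, normexp background correction 33 and 13, and the total gene signal 37 and 28. Testing all 1881 miRNAs gave 60 and 25, the 157 measured on all 16 arrays 53 and 28, and array weights 144 and 81. Fits that left out 1 array gave 78 to 122 higher and 39 to 68 lower. At an adjusted p of 0.01, 46 differences were smaller with no call at day 21, 20 smaller and still called, 1 turned, 3 larger and 40 held, and 15 had a called change and a difference called at day 21 alone. Without scaling, an alternative chosen after seeing the data for these classes, the same classes had 7, 28, 0, 12, 66 and 4. The change of miR-106b-5p passed under all 33 alternatives (-2.39 to -1.05, adjusted p of 0.000106 to 0.0417), and -1.49 to -1.19 without 1 array. The cause of the moves was not tested, save that fewer or more miRNAs tested changes the adjustment.

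Some directions reversed. With the total gene signal these were miR-300-5p (-3.98), miR-10b-5p (0.146), let-7e-5p (-1.05), miR-30b-5p (0.587), miR-30c-5p (1.59), miR-711 (-2.53) and the medians of the platelet (0.0700), let-7 (-0.12) and miR-30 (0.587) lists. With normexp they were miR-101a-3p (0.117), miR-146a-5p (0.162), miR-30c-5p (0.104), miR-27b-3p (0.158), miR-674-3p (0.239) and the medians of the liver (0.0114), platelet (0.138), leukocyte (0.236), stellate cell and fibrosis (0.504) and miR-30 (0.122) lists. With the percentile over all probes they were miR-26a-5p (-0.416), let-7e-5p (-0.271), miR-370-3p (-0.0478), miR-3960 (-0.38), miR-6366 (-0.233), miR-7118-5p (-0.102), miR-3472 (-0.116) and the vascular (-1.0), let-7 (-0.755), Dlk1-Dio3 (-0.124) and late-entry (-0.138) medians. With spike-in probes they were miR-26a-5p (-0.242), miR-3960 (-0.206), miR-6366 (-0.0587), the day 21 differences of miR-27a-3p (0.264), miR-5126 (0.499) and miR-3473f (0.527), and the vascular (-0.825), let-7 (-0.581) and late-entry (-0.00788) medians. With no scaling they were miR-26a-5p (-0.351), miR-3960 (-0.315), miR-6366 (-0.168), miR-7118-5p (-0.0366), miR-3472 (-0.0514), the day 21 differences of miR-222-3p (0.634), miR-27a-3p (1.06), miR-5126 (1.30) and miR-3473f (1.32), and the vascular (-0.934) and let-7 (-0.69) medians. The authors' values reversed miR-145a-5p (-0.00188), let-7e-5p (-0.269) and the vascular (-0.201) and let-7 (-0.256) medians. Quantile normalization reversed let-7e-5p (-0.211) and the vascular (-0.418) and let-7 (-0.211) medians. The vascular median also reversed among miRNAs measured on all 16 arrays (-0.137, let-7 there -0.0743) and with array weights (-0.0175), and the platelet median with the floor halved (0.0891). Without 1 array the platelet median was -0.0973 to 0.0786, the stellate cell and fibrosis median -0.128 to 0.146 and the vascular median -0.0368 to 0.16.

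With the replicate number as a block, 101 changes were called higher and 50 lower, and 91 and 45 with a block per day. Same-numbered arrays deviated together in 4 of 4 pairs at day 9 and in 2 of 4 at day 21. A replicate block at day 9 alone, chosen after seeing the data, gave 108 and 52. That block ended the named calls of miR-10b-5p and miR-30c-5p. The block per day ended those and the calls of miR-19b-3p (adjusted p = 0.0675), miR-30b-5p (adjusted p = 0.0783) and miR-3960 (adjusted p = 0.0649), and left 7 of 9 erythroid and 5 of 11 miR-17 members called lower. The single block ended miR-30b-5p (adjusted p = 0.0523) and miR-30c-5p (adjusted p = 0.0546) and added let-7e-5p (adjusted p = 0.0389). A slide block could not be fitted, because every group lies within a single slide and the groups therefore fix the slide. The control arrays also had low signal, with 184 to 351 of 1881 miRNAs well above background.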
